A study of Mus musculus with 7 samples.

Results

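The Ras, MEK and ERK cascade passes a signal from receptors at the cell surface to the nucleus. Ras proteins are small GTPases that, when bound to GTP at the membrane, recruit Raf kinases. Raf phosphorylates the MEK kinases, MEK phosphorylates ERK, and ERK phosphorylates transcription factors and other kinases. In the pre-implantation mouse embryo this pathway lies downstream of FGF receptors and is known for its part in the choice between epiblast and primitive endoderm. The 8 genes described here were taken by symbol. They were Nras and Hras (Ras GTPases), Araf and Braf (Raf kinases), Ksr1 (a Raf-related scaffold), Map2k1 and Map2k2 (MEK1 and MEK2) and Mapk3 (ERK1). All 8 were found among the 52636 genes of the count table by Ensembl identifier, and all 8 passed the filter on low counts. They do not include every paralog of each step, so no total was formed for a step.

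RNA was measured in 7 libraries of inner cell mass (ICM), the inner part of the blastocyst, all of genotype Sox2Cre;CRAFR26. The genotype joins a Cre transgene named for Sox2 with an inducible cRAF construct, through which tamoxifen switches on ERK, in a mouse line derived from targeted embryonic stem cells. The libraries are labelled E3.5 Epiblast. All embryos, controls included, were flushed at embryonic day 2.5 and cultured 24 h in 250 nM PD173074, an FGF receptor inhibitor. The 3 vehicle libraries (time label 0 h: clone 4 replicates 1 and 2, clone 8 replicate 1) received ethanol for 4 h, and the 4 tamoxifen libraries (time label 4 h: replicates 1 and 2 of each clone) received 250 nM 4-hydroxytamoxifen for 4 h. Each library pooled 10 ICMs, with the trophectoderm, the outer layer, removed by immunosurgery. Clone 4 and clone 8 are separate clones, and clone 8 has 1 vehicle library because the submitters dropped another. Whether transgene reads are counted under any endogenous gene was not tested.

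Library totals ran from 22981498 to 42294719 counts. All 10 ICM and epiblast markers listed, Nanog, Sox2 and Pou5f1 among them, had counts in every library. Trophectoderm markers were also present: all 10 were counted in every library. Their summed level per transcript length was 7912 to 9914 TPM (counts per transcript length, scaled to the same sum in every library) in vehicle and 5706 to 8285 TPM in tamoxifen libraries, against 1638 to 2581 and 1745 to 2508 TPM for the ICM and epiblast list. The primitive endoderm list summed to 452.8 to 729.7 TPM in vehicle and 440.4 to 532.0 TPM in tamoxifen libraries, and 9 of its 10 markers had counts in every library. Sox7 was at 0 in 1 library. These sums are carried by a few abundant genes, and single markers differed in direction between the lists. None passed adjustment in edgeR's quasi-likelihood test with tamoxifen against vehicle. Among all genes tested, 5.97% had an unadjusted p under 0.05 in that test, and 8.45% had groups that did not overlap. Of the trophectoderm markers 0 of 10 were higher and 10 lower with tamoxifen (median log2 fold change -0.33), and the groups did not overlap for Gata3 (-0.47, edgeR unadjusted p = 0.00803) and Elf3 (-0.53, edgeR unadjusted p = 0.0125). Of the 9 primitive endoderm markers tested 6 were higher and 3 lower (median 0.49), without overlap for Sox17 (2.58, edgeR unadjusted p = 0.00617) and Lama1 (1.35, edgeR unadjusted p = 0.00394). The ICM and epiblast list had 7 higher and 3 lower (median 0.41), without overlap for Gdf3. The part of these markers' cells in the results below was not tested, and in such pools fewer cells of a type and less RNA per cell cannot be told apart. Vehicle clone 8 replicate 1 stood apart from the rest. Among 1164 coding genes with transcripts under 1000 nt, this library had a median log2 deviation of -1.29 from the middle library, where the other 6 libraries had -0.038 to 0.22. The highest of these was tamoxifen clone 8 replicate 1. The median transcript lengths of the 8 cascade genes ran from 1716 to 9728 nt, but the shortest complete coding transcripts were 831 nt for Nras, 1073 nt for Hras and 1267 nt for Mapk3. Which of these transcripts the libraries held was not tested. In the classes of 1500 nt and more the deviation of vehicle clone 8 replicate 1 was at most 0.067.

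The coding sequences show how close the paralogs are, which bears on how reads were assigned. They come from GENCODE M21 on GRCm38. Nras and Hras have 189 codons each, and their aligned coding sequences were identical at 76.4% of columns, with a longest shared run of 23 bases. The last 75 coding bases, which include the stretch where Ras proteins differ most and the CAAX box that receives the farnesyl lipid, differed at 39 of 75 bases between the paralogs. They are shown for this contrast, with the 4 CAAX codons in capitals. The Nras stretch is chr3:103063375-103063449 on the plus strand and the Hras stretch is chr7:141191348-141191422 on the minus strand.
Nras: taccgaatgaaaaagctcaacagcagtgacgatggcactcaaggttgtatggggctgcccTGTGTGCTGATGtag
Hras: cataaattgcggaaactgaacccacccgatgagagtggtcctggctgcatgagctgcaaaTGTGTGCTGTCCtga

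Map2k1 and Map2k2 shared the longest run. Their coding sequences were identical at 77.3% of aligned columns and had 56 bases in a row in common, and a read that lies wholly within that run could come from either gene. Their activation segments, where Raf adds phosphate to a pair of serines, differed at 11 of 63 bases. The serine codons are in capitals, in chr9:64193705-64193767 on the minus strand for Map2k1 and chr10:81119316-81119378 on the plus strand for Map2k2. The same part of Mapk3, chr7:126763428-126763490 on the plus strand, is shown with the threonine and tyrosine codons that MEK phosphorylates in capitals. Araf and Braf were less alike, with 53.9% identity and a longest shared run of 17 bases.
Map2k1: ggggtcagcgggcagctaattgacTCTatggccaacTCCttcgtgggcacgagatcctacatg
Map2k2: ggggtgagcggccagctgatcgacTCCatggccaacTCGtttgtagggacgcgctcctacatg
Mapk3: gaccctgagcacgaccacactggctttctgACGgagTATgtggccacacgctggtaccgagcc

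Levels were first compared between the genes, per transcript length and over all 7 libraries. The cascade was uneven: Nras, Araf, Map2k1 and Map2k2 were each near 100 TPM, whereas Hras, Mapk3 and Braf were at about 3 to 13 TPM and Ksr1 was close to absent. Map2k2 had 107.5 ± 21.5 TPM (SD, n = 7), Nras 103.4 ± 20.99 TPM (SD, n = 7), Araf 97.9 ± 26.0 TPM (SD, n = 7) and Map2k1 94.5 ± 18.6 TPM (SD, n = 7). These 4 genes could not be ordered. Each neighbour in that order was higher in only 3 or 4 of 7 libraries. They lay above 87.9% to 89.0% of the 16248 genes tested. All 4 had their highest TPM in vehicle clone 8 replicate 1, the library with few short transcripts, from 127.8 TPM for Map2k1 to 154.2 TPM for Araf, and TPM is relative to the sum over all transcripts of a library.

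Hras had 12.7 ± 5.73 TPM (SD, n = 7), above 61.0% of the tested genes, and was below Map2k1 in 7 of 7 libraries. Mapk3 had 4.85 ± 2.08 TPM (SD, n = 7) and was below Hras in 7 of 7 libraries. Braf had 3.20 ± 0.811 TPM (SD, n = 7) and was below Mapk3 in 5 of 7, so these neighbours were not separated beyond their spread. Ksr1 had 0.193 ± 0.164 TPM (SD, n = 7), below all the others in 7 of 7 libraries and above 3.98% of tested genes.

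**Figure D1:**
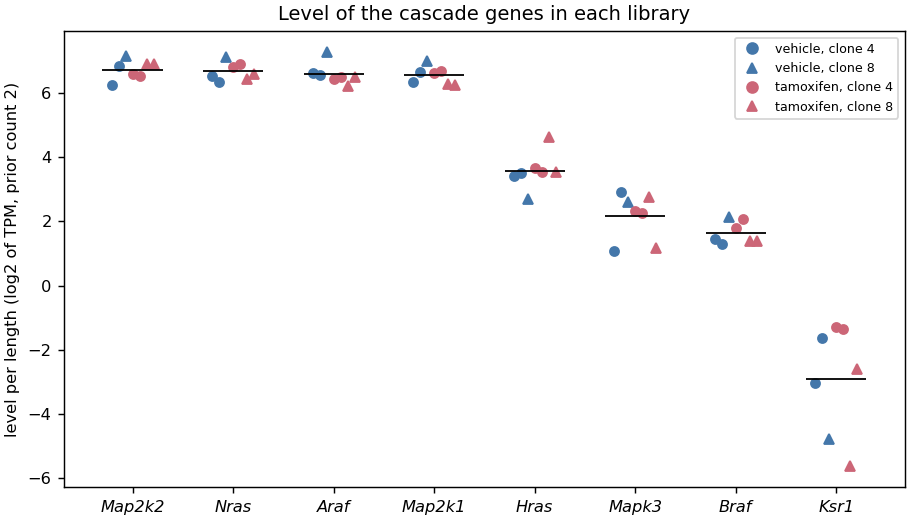
Level of each cascade gene per transcript length (log2 of TPM with a prior count of 2, vertical axis) in the 7 libraries, in descending order of the mean (black line); blue is vehicle, red is tamoxifen, circles are clone 4 and triangles clone 8. Map2k2, Nras, Araf and Map2k1 lie together at the top, Hras, Mapk3 and Braf are lower, and Ksr1 is lowest with the widest spread.

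Paralogs of the same step were then compared within each library. Nras exceeded Hras by 3.10 ± 0.78 (log2, SD, n = 7), an 8.59-fold difference, in 7 of 7 libraries (two-sided exact sign-flip permutation p = 0.0156, adjusted p = 0.0234 over 3 pairs). Araf exceeded Braf in 7 of 7 libraries. The log2 level of Braf minus Araf was -4.93 ± 0.32 (SD, n = 7), so Araf was 30.5-fold higher (exact permutation p = 0.0156, adjusted p = 0.0234). A p of 0.0156 is the smallest that 7 libraries can give. Map2k1 minus Map2k2 was -0.18 ± 0.33 (log2, SD, n = 7), with Map2k1 higher in 3 of 7 libraries (exact permutation p = 0.234, adjusted p = 0.234).

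The size of such gaps depends on the length taken for each gene. The level of Braf assumes its 9728 nt transcript, most of which is untranslated. With the coding length alone the difference from Araf was -3.30, and with the union of exons it was -3.97. For the MEK genes the direction itself changed. Map2k1 exceeded Map2k2 by 0.86 with the union of exons (exact permutation p = 0.0156, adjusted p = 0.0156), and lay below it, at -0.53, with the shortest complete coding transcripts (exact permutation p = 0.0156, adjusted p = 0.0156), a setting chosen after the data were seen.

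The main comparison asked whether transcripts of the cascade changed at 4 h of tamoxifen. It used CPM (a count divided by the TMM-adjusted library size) and edgeR's quasi-likelihood test across 16248 genes with Benjamini-Hochberg adjustment. None of the 8 genes was called as changed: 0 of 8 had an adjusted p under 0.05, and 0% of all tested genes did. Such a result does not show that the 8 genes were unchanged. At an unadjusted p under 0.05 there were also 0 of 8, against 5.97% of all genes, and DESeq2 likewise called 0 of 8 after adjustment. Adjusted p-values of the members ran from 0.794 to 0.998. The median log2 fold change was 0.11 for the 8 genes and 0.019 for all genes, with 5 members higher and 3 lower. Groups did not overlap in 1 member, Araf, while 8.45% of all genes showed no overlap.

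**Figure D2:**
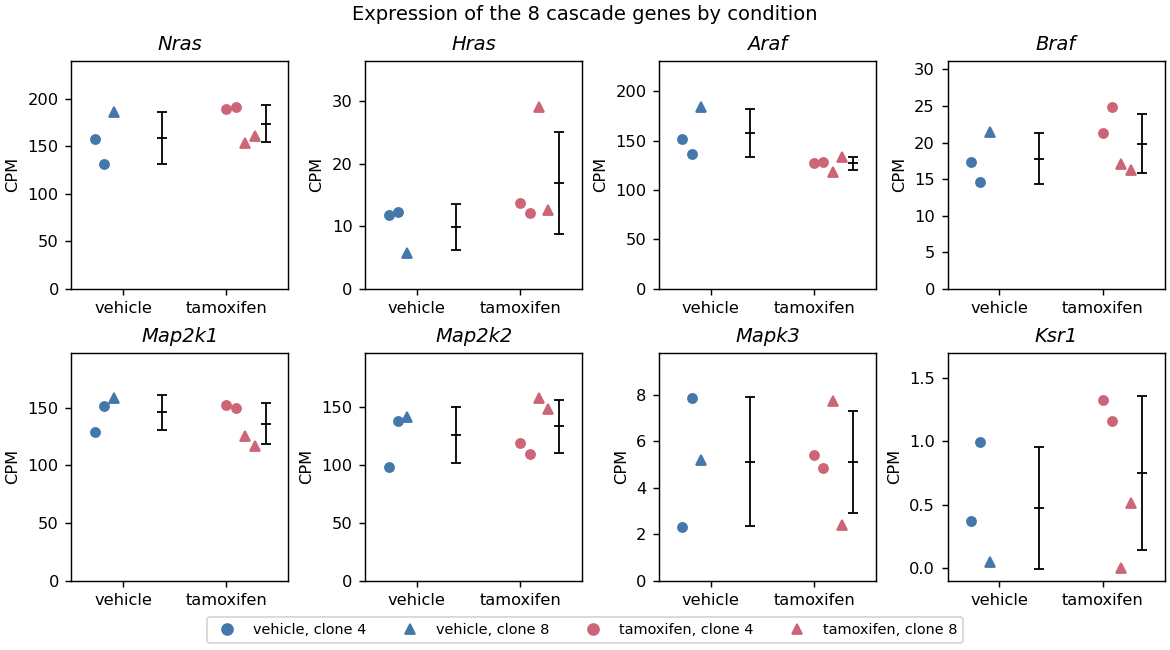
Expression (CPM, vertical axis from 0, except Ksr1, drawn from just below 0) of the 8 genes in the 3 vehicle (blue) and 4 tamoxifen (red) libraries; circles are clone 4, triangles clone 8, and black bars give mean and SD. Groups overlap in every panel but Araf, and 1 tamoxifen library of clone 8 stands above the rest for Hras at 29.1 CPM.

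Nras (ENSMUSG00000027852, chromosome 3, 103058285 to 103067914, plus strand) encodes a Ras GTPase. It had 158.1, 131.0 and 186.3 CPM in vehicle clone 4 replicates 1 and 2 and clone 8 replicate 1. In tamoxifen it had 189.2 and 191.8 CPM in clone 4 and 153.0 and 161.1 CPM in clone 8. The groups overlapped. In clone 4 both tamoxifen libraries were above both vehicle libraries, whereas in clone 8 both were below the single vehicle library. The log2 fold change was 0.13 ± 0.17 (SE), with a 95% interval from -0.26 to 0.52 (edgeR adjusted p = 0.878). Within clone 4 it was 0.39 (edgeR unadjusted p = 0.0418, adjusted p = 0.619). The change in clone 8 minus that in clone 4 was -0.64, which did not pass adjustment (edgeR interaction test, unadjusted p = 0.0392, adjusted p = 0.305).

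Hras (ENSMUSG00000025499, chromosome 7, 141189105 to 141194005, minus strand), the other Ras gene, had the largest log2 fold change of the 8, 0.77 ± 0.40 (SE; 95% interval -0.11 to 1.66; edgeR unadjusted p = 0.0799, adjusted p = 0.794). Vehicle values were 11.8 and 12.2 CPM in clone 4 and 5.63 CPM in clone 8 replicate 1. Tamoxifen values were 13.7 and 12.2 CPM in clone 4, and 29.1 and 12.6 CPM in clone 8 replicates 1 and 2. The value at each extreme came from a library of clone 8 replicate 1, and the other 5 libraries lay between 11.8 and 13.7 CPM. Without those 2 libraries the log2 fold change was 0.091, and within clone 4 it was 0.099. Leaving out vehicle clone 8 replicate 1 alone gave 0.48, and leaving out tamoxifen clone 8 replicate 1 alone gave 0.38. The clone difference of 1.78 did not pass adjustment (edgeR interaction test, adjusted p = 0.264).

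For 0 of the 8 genes did the response differ between the clones after adjustment (edgeR interaction test), against 3.16% of all genes. It rests on the 1 vehicle library of clone 8, the one with few short transcripts.

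Araf (ENSMUSG00000001127, chromosome X, 20797814 to 20860519, plus strand) encodes a Raf kinase. Vehicle libraries had 151.3 and 136.7 CPM in clone 4 and 184.5 CPM in clone 8. Tamoxifen libraries had 127.6 and 128.5 CPM in clone 4 and 117.8 and 133.7 CPM in clone 8. All 4 tamoxifen values were below all 3 vehicle values, and they were closer together (6.63 against 24.5 CPM, SD). The log2 fold change was -0.31 ± 0.16 (SE), with a 95% interval from -0.66 to 0.04 (edgeR unadjusted p = 0.0768, adjusted p = 0.794). It was negative under all 16 other settings tried, from -0.41 to -0.15, and the value nearest to 0 came without both libraries of clone 8 replicate 1. The trophectoderm markers moved the same way: all 10 had a negative log2 fold change, and Gata3 and Elf3, like Araf, had every tamoxifen library below every vehicle library. Their summed level overlapped between the groups (7912 to 9914 TPM in vehicle, 5706 to 8285 TPM in tamoxifen libraries). In CPM, in the library order given for Araf, the sum was 11227, 8530 and 9022 in vehicle and 7938, 6565, 9534 and 6546 in tamoxifen libraries. Within the tamoxifen group, clone 8 replicate 1 had the highest sum and the lowest Araf value. Clone 8 replicate 2 had the lowest sum and the highest Araf value. In vehicle, clone 4 replicate 2 was lowest in both. The part of trophectoderm RNA in the Araf values was not tested.

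Braf (ENSMUSG00000002413, chromosome 6, 39603237 to 39725463, minus strand), the other Raf kinase gene, had 17.4 and 14.6 CPM in vehicle clone 4 and 21.5 CPM in vehicle clone 8. Tamoxifen values were 21.2 and 24.9 CPM in clone 4 and 17.0 and 16.2 CPM in clone 8. As for Nras, clone 4 was higher with tamoxifen and clone 8 lower. The log2 fold change was 0.16 ± 0.24 (SE; 95% interval -0.38 to 0.69; edgeR adjusted p = 0.894), and 0.52 within clone 4 (edgeR adjusted p = 0.682). Exons of Braf overlap those of Ndufb2, a gene on the other strand, by 146 bp. Ndufb2 itself ranged from 3.68 to 25.8 CPM, and the strand setting of the counting is not given in the sources used here, so reads from this overlap cannot be told apart.

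Ksr1 (ENSMUSG00000018334, chromosome 11, 79013440 to 79146407, minus strand) encodes a scaffold that holds Raf, MEK and ERK together. It was counted 15, 32 and 2 times in vehicle clone 4 replicates 1 and 2 and clone 8 replicate 1. In tamoxifen it was counted 56 and 27 times in clone 4, and 0 and 21 times in clone 8 replicates 1 and 2. Both libraries of clone 8 replicate 1 were at or under 3 counts. The count of 0 allows up to 0.107 CPM in that library, where the other tamoxifen libraries had 0.51 to 1.33 CPM. On the log2 scale the fold change was 0.67 ± 1.28 (SE), with a 95% interval from -2.17 to 3.52 (edgeR adjusted p = 0.915). The interval includes changes of several fold in either direction. Leaving out 1 library gave values from 0.13 (without vehicle clone 8 replicate 1) to 1.82 (without vehicle clone 4 replicate 2). Library totals did not order the counts: the vehicle and tamoxifen libraries with 2 and 56 counts had 40054981 and 42294719 counts in all.

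Map2k1 (ENSMUSG00000004936, chromosome 9, 64185770 to 64253631, minus strand) encodes MEK1. It had 128.6, 151.1 and 157.9 CPM in the vehicle libraries, and 152.3, 149.9, 125.7 and 116.9 CPM in tamoxifen clone 4 replicates 1 and 2 and clone 8 replicates 1 and 2. The groups overlapped, and the lowest values were those of tamoxifen clone 8. The log2 fold change was -0.10 ± 0.16 (SE; 95% interval -0.47 to 0.27; edgeR adjusted p = 0.899).

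Map2k2 (ENSMUSG00000035027, chromosome 10, 81105915 to 81133975, plus strand) encodes MEK2. It had 98.4, 138.0 and 141.8 CPM in the vehicle libraries, and 119.4, 109.4, 157.5 and 148.1 CPM in the tamoxifen libraries in the same order. Here tamoxifen clone 8 held the highest values. Its log2 fold change was 0.08 ± 0.20 (SE; 95% interval -0.36 to 0.52; edgeR adjusted p = 0.937).

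Mapk3 (ENSMUSG00000063065, chromosome 7, 126759601 to 126765819, plus strand) encodes ERK1. Its counts ran from 93 to 252. Vehicle libraries had 2.31, 7.85 and 5.21 CPM, and tamoxifen libraries 5.40, 4.87, 7.73 and 2.38 CPM. Each group held 1 library near 2.3 CPM and 1 near 7.8 CPM, and their means were 5.12 ± 2.77 CPM (SD, n = 3) and 5.09 ± 2.195 CPM (SD, n = 4). The fold change of Mapk3 in log2 was -0.01 ± 0.49 (SE; 95% interval -1.11 to 1.09; edgeR adjusted p = 0.998), so changes of up to about 1.1 in log2 either way lay within the interval.

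**Figure D3:**
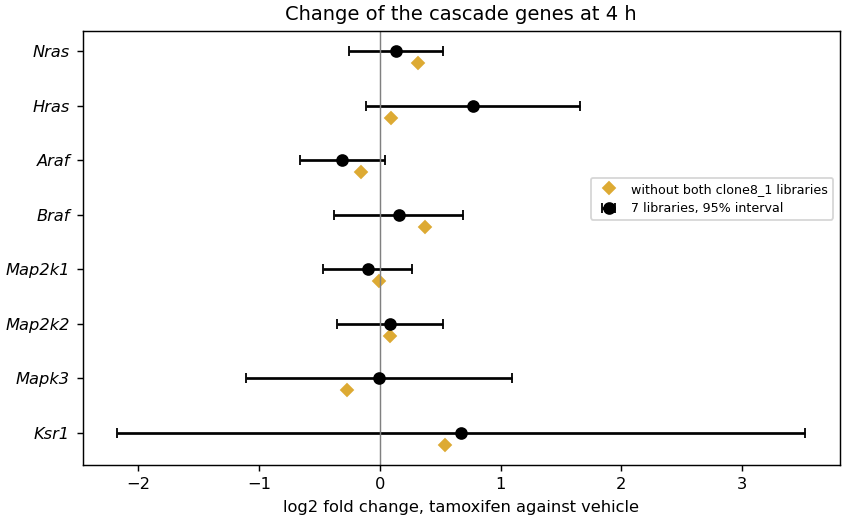
Log2 fold change of each gene, tamoxifen against vehicle (horizontal axis), with its 95% interval from all 7 libraries (black) and the value without both libraries of clone 8 replicate 1 (yellow). Every interval includes 0, those of Nras, Araf, Map2k1 and Map2k2 are the narrowest, and Hras moves from 0.77 to 0.091 without the 2 libraries.

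Whether the balance of paralogs moved was asked from the ratio within each library, where transcript length cancels between conditions. None of the 3 ratios passed the test after adjustment. The log2 ratio of Braf over Araf was -5.16, -5.27 and -5.14 in vehicle clone 4 replicates 1 and 2 and clone 8 replicate 1. In tamoxifen it was -4.63 and -4.41 in clone 4 and -4.83 and -5.08 in clone 8. All 4 tamoxifen ratios were above all 3 vehicle ratios, a difference of 0.46 (two-sided exact permutation p = 0.0571, adjusted p = 0.171 over 3 pairs). The smallest p that 3 against 4 libraries can give is 0.0286, so 1 ratio alone cannot go below an adjusted p of 0.0857 and could not have been called by itself.

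For Nras over Hras the log2 ratio averaged 3.45 ± 0.86 under vehicle (SD, n = 3) and 2.84 ± 0.72 under tamoxifen (SD, n = 4), so the means differed by -0.61 (exact permutation p = 0.486, adjusted p = 0.486). Its extremes, 4.43 and 1.78, were the vehicle and the tamoxifen library of clone 8 replicate 1. Without them the difference was 0.23. For Map2k1 over Map2k2 the means differed by -0.19 (two-sided exact permutation p = 0.457, adjusted p = 0.486). Both tamoxifen libraries of clone 8, at -0.62 and -0.64, were below the other 5, which lay between -0.17 and 0.16.

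**Figure D4:**
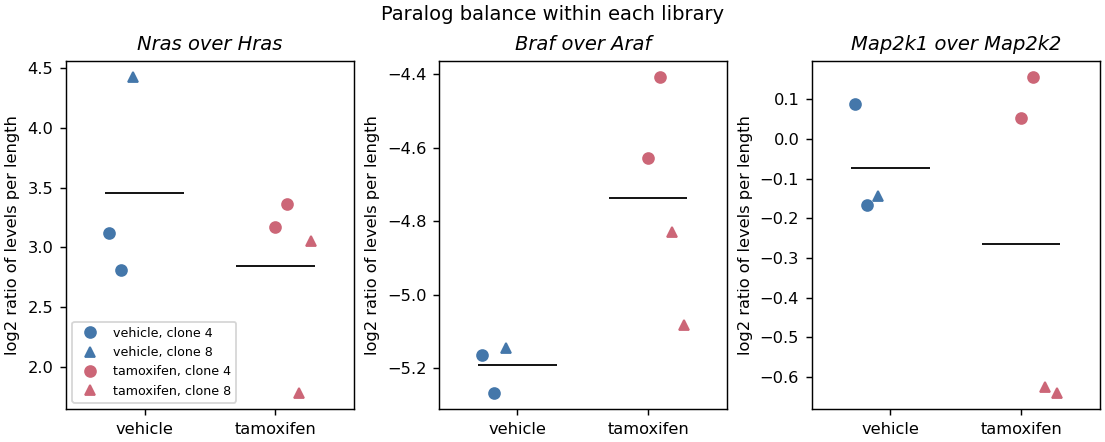
Log2 ratio of paralog levels per length within each library (vertical axis, a separate scale in each panel), for vehicle (blue) and tamoxifen (red), with circles for clone 4, triangles for clone 8 and lines for group means. The Braf over Araf ratios of the groups do not overlap, with a difference of 0.46, and 2 libraries of clone 8 set the extremes of Nras over Hras.

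Among the 8 genes and 80 other tested genes of the pathway, the profile closest to that of each member over the 7 libraries was found by the root mean square distance of centred log2 CPM. Nras and Braf were each other's nearest, at 0.10, where the median distance to the 87 candidates was 0.38 for Nras and 0.42 for Braf. Map2k1 lay nearest to Ywhaz, a 14-3-3 protein that binds Raf, at 0.085. Araf lay nearest to Golga7, part of a Ras palmitoyltransferase, at 0.11. Map2k2 lay nearest to Hsp90ab1, a chaperone of Raf kinases, at 0.16, and Hras to Dab2ip, a Ras GTPase-activating protein, at 0.25. The nearest genes of Mapk3 (Map2k6, at 0.44) and Ksr1 (Rasgrf1, at 1.44) lay at larger distances. A profile flat over the libraries would lie at 0.16 from Map2k1, 0.19 from Nras, 0.20 from Araf, 0.23 from Map2k2 and 0.25 from Braf. For Hras, Mapk3 and Ksr1 that distance was 0.63, 0.66 and 1.67. Shared control of a member and its nearest gene was not tested.

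The other genes of the pathway were followed in 8 lists of 90 genes, of which 80 were tested. None was called after adjustment, by edgeR or DESeq2. At an unadjusted p under 0.05 there were 4 of 80, 2 higher and 2 lower, where the share of all genes was 5.97%. The median log2 fold change was 0.0071, with 40 higher and 40 lower.

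Upstream of Raf, 9 of 10 Ras-related GTPases were tested and none was called (5 higher, 4 lower; median log2 fold change 0.15). The most abundant were Rheb, an activator of mTORC1, at 255.3 ± 31.9 TPM (SD, n = 7), and Mras, a partner of Shoc2, at 145.6 ± 21.8 TPM (SD, n = 7). For Rala, another of this list, the log2 change in clone 8 minus that in clone 4 was 1.62. That difference rests on the single vehicle library of clone 8, at 35.4 CPM, where the other libraries had 98.6 to 113.9 CPM. Of the exchange factors, which load Ras with GTP, 5 of 8 were tested (3 higher, 2 lower; median 0.20), and Rasgrp1, Rasgrp3 and Rasgrf2 were too low. Rasgrp4 had 31.2 ± 14.8 TPM (SD, n = 7) and Sos1, the exchange factor recruited by receptor adaptors, 5.25 ± 0.874 TPM (SD, n = 7). Of the GTPase-activating proteins and turnover factors 10 of 11 were tested (6 higher, 4 lower; median 0.13), led by Lztr1, an adaptor for Ras degradation, at 15.8 ± 4.96 TPM (SD, n = 7), and Rasa1 at 9.14 ± 2.35 TPM (SD, n = 7). All 8 genes of lipid modification and transport were tested (3 higher, 5 lower; median -0.094). The thioesterase gene Lypla1 had 201.6 ± 43.0 TPM (SD, n = 7) and Golga7 141.7 ± 28.2 TPM (SD, n = 7).

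Around and below the cascade, 17 of 19 scaffolds and chaperones were tested (6 higher, 11 lower; median -0.011), and Ksr2 and Cnksr2 were too low. The chaperones Hsp90ab1 and Hsp90aa1 had 3143 ± 504.5 TPM (SD, n = 7) and 2499 ± 174.7 TPM (SD, n = 7). All 8 kinases activated by ERK were tested (5 higher, 3 lower; median 0.19), the most abundant being Rps6ka1 (RSK1) at 31.2 ± 8.40 TPM (SD, n = 7) and Mknk1 at 15.4 ± 3.98 TPM (SD, n = 7). Rps6ka1, like Hras, was highest in tamoxifen clone 8 replicate 1, at 99.0 CPM against 45.7 to 58.9 CPM in the other 6 libraries.

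In the parallel MAP kinase modules, 12 of 14 MAP3K and MAP2K genes (7 higher, 5 lower; median 0.026) and 11 of 12 MAP kinases (5 higher, 6 lower; median -0.0031) were tested. Map2k3, a p38 activator, had 53.8 ± 14.9 TPM (SD, n = 7) and Map2k6, another, 39.1 ± 14.8 TPM (SD, n = 7). Mapk6 (ERK3), an atypical MAP kinase, had 55.6 ± 13.9 TPM (SD, n = 7), and Mapk7 (ERK5) 18.8 ± 4.85 TPM (SD, n = 7).

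The 6 genes of these lists with the smallest unadjusted p-values all had an adjusted p of 0.794 in edgeR. Of the 80 genes tested, groups did not overlap in 2 that were higher with tamoxifen and 3 that were lower. The share of all genes without overlap was 8.45%. Mapk8, the JNK1 gene, averaged 20.1 ± 3.403 CPM in the vehicle group (SD, n = 3) but 12.5 ± 1.51 CPM under tamoxifen (SD, n = 4), which is a log2 fold change of -0.69 ± 0.22 (SE; edgeR unadjusted p = 0.0113). The groups did not overlap: vehicle ranged from 18.1 to 24.1 CPM and tamoxifen from 10.7 to 14.1 CPM. Mapk6 averaged 160.1 ± 16.8 CPM under vehicle (SD, n = 3) and 121.3 ± 11.0 CPM under tamoxifen (SD, n = 4), also without overlap (log2 fold change -0.40 ± 0.15, SE). Map3k11, which encodes the kinase MLK3, averaged 17.4 ± 5.45 CPM under vehicle (SD, n = 3) and 26.7 ± 2.504 CPM under tamoxifen (SD, n = 4), with all tamoxifen libraries above all vehicle libraries (0.62 ± 0.25, SE). The others were Mapk11 (2.41 ± 0.96, SE), with at most 2.71 CPM in any library, Shoc2 (-0.47 ± 0.22, SE) and Rras2 (0.60 ± 0.29, SE). Rras2 was also without overlap, with 7.14 to 9.90 CPM in vehicle and 10.0 to 18.7 CPM in tamoxifen libraries.

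**Figure D5:**
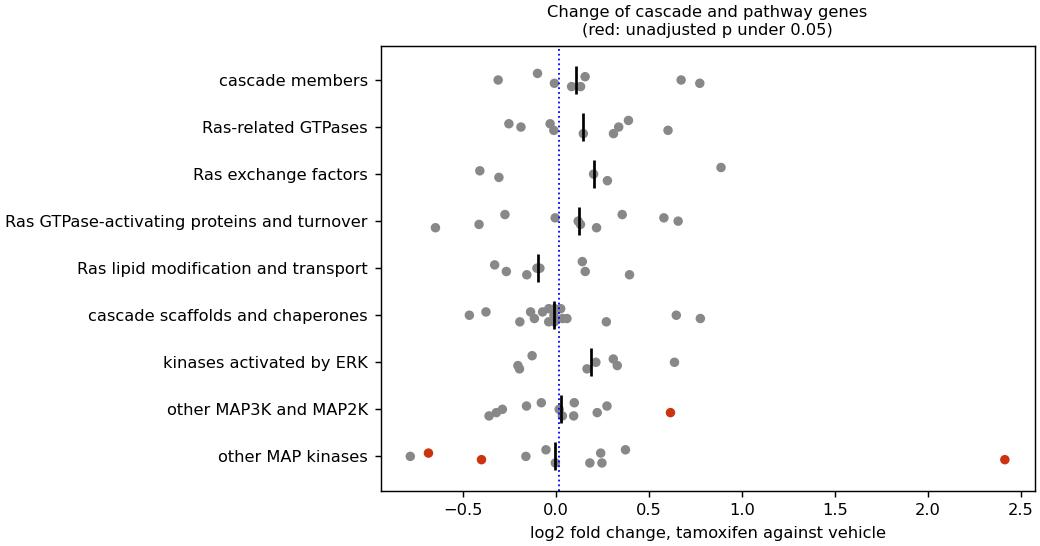
Log2 fold change of each tested gene (points; horizontal axis), tamoxifen against vehicle, in the 8 cascade genes and the 8 pathway lists; black ticks are list medians and the dotted line is the median of all tested genes. Medians of the lists lie between -0.094 and 0.20, and the 4 points with an unadjusted p under 0.05 (red) are all in the parallel MAP kinase lists.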

How the data were processed

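Raw counts per Ensembl gene, deposited by the authors in a table with 1 column per library, were used as they stood. Reads were demultiplexed with bcl2fastq 2.19.1 and aligned with STAR 2.5.3a to mm10, per the submitters' processing notes. The counting program, annotation release, strand setting and duplicate handling are not given in the sources used here. Gene symbols, coordinates and lengths came from GENCODE M21 (GRCm38, the same assembly), which matched 52489 of 52636 identifiers.

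The test was edgeR's quasi-likelihood test (edgeR 4.0.16, R 4.3.3; TMM factors, expression filter by group, a model of condition alone, Benjamini-Hochberg adjustment over 16248 genes, threshold 0.05). The code was tested on data with known answers. DESeq2 1.42.0 was an alternative, and the interaction test with clone was added after seeing the data. SE values are the fold change divided by the root of the F statistic. TPM was computed from counts and the median length of a gene's basic coding transcripts, and log2 levels used a prior count of 2. Amplified reads without molecular identifiers are not independent molecules, so the limit for a count of 0, set at 3 counts, covers counting error only. No 2 libraries agreed within sampling noise (smallest chi-square per degree of freedom 26.1). Nothing states that libraries of a group came from separate litters, so p-values measure the spread between these libraries.

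The members, lists and tests were chosen with earlier results of these data known. Named genes are the 8 members, the 2 most abundant tested genes of each pathway list, the 6 genes of those lists with the smallest unadjusted p, any called gene, and the nearest profile to each member. The overlapping gene Ndufb2, the GTPase gene Rala and the markers whose groups did not overlap were named after their values were seen.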

Additional observations from a re-analysis of the deposited data

Results flagged for a closer look

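Hras in tamoxifen clone 8 replicate 1 was at 29.1 CPM, far from the other 3 tamoxifen libraries at 12.2 to 13.7 CPM: the gap to the nearest was 0.907 of the range of the group, above Dixon's 95% critical value for 4 samples. About 1 in 20 groups would show this by chance, and it was 1 of the 8 genes examined. The share of all genes that stand out in this library was not computed. Rps6ka1, not examined in this way, was at 99.0 CPM there, against 45.7 to 49.2 CPM in the other tamoxifen libraries. Vehicle clone 8 replicate 1 had the lowest Hras value, 5.63 CPM, but a group of 3 was not examined in this way.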

How the results depend on the processing

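The number of cascade genes called was 0 under all 16 other settings, and so was the number of pathway list genes. Over all genes DESeq2 called 4 and the fit without both clone 8 replicate 1 libraries called 2. Same-numbered libraries of a clone did not deviate together (correlations 0.0078, 0.021 and -0.068). So few libraries cannot show whether they shared more than a clone and a number. With the replicate block 0 genes were called and Mapk3 changed by 0.37 instead of -0.01. Mapk3 was also positive with a mean count of at least 50 (0.010), within clone 4 (0.012) and with a length trend as offset (0.00079), and ranged from -0.37 to 0.43 when each library was left out. Map2k2 was -0.055 within clone 4 and ranged from -0.083 to 0.17 when each library was left out. Map2k1 was 0.10 within clone 4. Hras, Nras, Araf, Braf and Ksr1 kept their direction in every fit that gave a value, but not their size: leaving out each library gave 0.010 to 0.26 for Nras, 0.016 to 0.30 for Braf, 0.13 to 1.82 for Ksr1, 0.38 to 0.95 for Hras and -0.41 to -0.19 for Araf. Ksr1 has no value with a mean count of at least 50.

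Nras minus Hras was 3.10 without both clone 8 replicate 1 libraries and 3.11 within clone 4, and Braf minus Araf was -4.91 and -4.87. Neither could pass there, because 5 and 4 libraries cannot give a small enough p. Map2k1 minus Map2k2 was 0.098 with longest transcripts, 0.86 with the union of exons, 0.15 with coding lengths, -0.53 with the shortest complete transcripts and 0.032 within clone 4. The change of Nras over Hras was 0.23 without both clone 8 replicate 1 libraries and 0.30 within clone 4, and that of Map2k1 over Map2k2 was 0.14 within clone 4. The cause of these reversals was not tested, except that a change of gene length acts by construction. The coding lengths and shortest transcripts were added after seeing the data. Counting error and spread between libraries were not separated for Ksr1, with 0 to 56 counts.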
